A study of Mus musculus with 36 samples.

Results

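The miR-106b-25 and miR-106a-363 clusters are paralogs of miR-17-92, and 8 of their mature miRNAs were followed here out of the 1915 mature miRNAs in the read count table. The members were chosen by name. They are mmu-miR-106b-5p, mmu-miR-106b-3p, mmu-miR-93-5p, mmu-miR-93-3p and mmu-miR-25-3p of miR-106b-25, and mmu-miR-106a-5p, mmu-miR-20b-5p and mmu-miR-363-3p of miR-106a-363. A miRNA pairs with messenger RNAs through its seed, bases 2 to 8 of the mature strand, and lowers their translation and stability. Each hairpin precursor can release a strand from its 5′ arm, marked 5p, and one from its 3′ arm, marked 3p. The miR-17-92 family is known for promoting proliferation of progenitor cells in developing organs, the kidney included, and for promoting cyst growth in mice with polycystic kidneys.

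The libraries came from whole kidneys of C57BL/6 mice of 2 models of autosomal dominant polycystic kidney disease. Pkd1 f/f and Pkd2 f/f animals, in which the gene named is flanked by loxP sites, served as controls and are called WT. Their counterparts with a Cre recombinase that deletes that gene in the collecting duct, Pkd1 f/f:HoxB7-Cre or Pkd2 f/f:HoxB7-Cre, are called KO. Each of the 12 groups had 3 libraries, for 36 in all, and the ages were postnatal day 1 (P1), day 3 (P3) and day 7 (P7). The HoxB7 promoter drives Cre in the collecting duct, whereas the RNA was of the whole kidney, so a lower level of a miRNA may reflect fewer cells of a type or less RNA per cell, and these cannot be told apart. The labels give neither sex nor batch and do not say whether the replicates are separate animals, so p-values measure the spread between these libraries.

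The mature sequences show what the members share. They are given 5′ to 3′ as RNA, from RefSeq (GRCm38.p6), with the seed in capitals. The first set holds the members with the seed of miR-17-5p, beside miR-17-5p itself.
mmu-miR-106b-5p: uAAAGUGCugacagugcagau
mmu-miR-93-5p: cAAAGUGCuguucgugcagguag
mmu-miR-106a-5p: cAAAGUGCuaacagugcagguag
mmu-miR-20b-5p: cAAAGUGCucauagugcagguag
mmu-miR-17-5p: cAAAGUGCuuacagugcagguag
The second set holds the members with the seed of miR-92a-3p, beside miR-92a-3p itself.
mmu-miR-25-3p: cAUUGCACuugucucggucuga
mmu-miR-363-3p: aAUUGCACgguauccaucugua
mmu-miR-92a-3p: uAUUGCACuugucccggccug
The remaining strands, from the other arms of the hairpins of miR-106b and miR-93, have seeds that no other member has.
mmu-miR-106b-3p: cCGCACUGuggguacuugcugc
mmu-miR-93-3p: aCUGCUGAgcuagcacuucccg

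Counted from the 5′ end, miR-106a-5p differs from miR-17-5p by 1 substitution, U10A. miR-20b-5p differs from miR-17-5p by U10C and C12U, and from miR-20a-5p by U1C and U10C. miR-93-5p has 4 substitutions against miR-17-5p, and miR-25-3p has 3 against miR-92a-3p over 21 bases. By contrast, miR-363-3p has 11 substitutions against miR-92a-3p over the same length, all of them outside the seed. Reads of near-identical miRNAs can be assigned to the wrong one by a counter that tolerates a mismatch, so the levels of miR-106a-5p and miR-20b-5p are less certain than that of miR-363-3p. The reads of miR-106a-5p amounted to 1.62% to 3.36% of those of miR-17-5p in the same library, with a median of 2.17%.

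The 3 hairpins of miR-106b-25 lie within 498 bases of chromosome 5 on the minus strand of GRCm38, inside Mcm7, which encodes a subunit of the replicative DNA helicase. Mir106b (chr5:138165737-138165818) is intronic. Mir93 (chr5:138165523-138165610) and Mir25 (chr5:138165321-138165404) lie in sequence that is intronic in Mcm7 messenger RNA but belongs to an annotated exon of a retained-intron transcript. The 6 hairpins of miR-106a-363 lie within 875 bases of the X chromosome, also on the minus strand. Mir106a (chrX:52742503-52742567) is in an exon of the noncoding gene Kis2, and Mir20b (chrX:52742113-52742192) and Mir363 (chrX:52741693-52741767) overlap no other annotated gene. Because the cluster is X-linked and the labels give no sex, a difference in sex between groups cannot be told apart from the group for these members.

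The clusters stood at very different levels. Levels are in CPM, read counts set to a common library total and scaled by TMM (trimmed mean of M values) factors over all 36 libraries, and every read covers one miRNA, so no length scaling was needed. The 5 members of miR-106b-25 summed to between 2912 and 6420 CPM per library, with a median of 4859. The 3 members of miR-106a-363 summed to between 32.4 and 75.7 CPM, with a median of 53.2. Within a library the chromosome 5 sum exceeded the X-linked sum by 55.1-fold to 145-fold, with a median of 88.0-fold. Library totals ran from 12569939 to 32663566 reads, of which the 8 members took between 0.157% and 1.10% and miR-10a and miR-10b together between 31.4% and 81.0%. Every member was sequenced in every library, the fewest reads being 34, for miR-93-3p, and every member passed the filter on low counts.

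Among the members, miR-25-3p and miR-93-5p dominated. miR-25-3p ran from 1495 to 4193 CPM (median 2818 over the 36 libraries) and ranked 32nd of all mature miRNAs by mean level. miR-93-5p ran from 1183 to 2205 CPM (median 1689), with the narrowest spread of the 8 members, an SD of 0.19 on the log2 scale over all libraries. miR-106b-5p followed at 158 to 410 CPM (median 267) and its partner strand miR-106b-3p at 41.9 to 91.3 CPM (median 66.2). The X-linked miRNAs were lower, miR-363-3p at 12.0 to 28.9 CPM (median 20.6), miR-20b-5p at 12.0 to 29.4 CPM (median 17.9) and miR-106a-5p at 7.77 to 18.2 CPM (median 14.0). miR-93-3p was the least abundant, at 3.65 to 14.6 CPM (median 7.32). These members thus covered a wide range of abundance, with the partner strands of miR-93 far apart and those of miR-106b close together.

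When the 12 groups were ordered by mean level, neighbours in that order had overlapping libraries, except for 1 of the 11 neighbour pairs in each of miR-106b-3p, miR-93-5p, miR-25-3p and miR-363-3p. Groups further apart in the order could still be separate. The highest group mean exceeded the lowest by 1.48-fold in miR-93-5p, 1.55-fold in miR-106b-5p, 1.57-fold in miR-106b-3p, 1.71-fold in miR-20b-5p, 1.75-fold in miR-106a-5p, 1.99-fold in miR-363-3p, 2.09-fold in miR-25-3p and 2.23-fold in miR-93-3p. For all 3 members of the X-linked cluster the highest group was Pkd2 WT at P7. The lowest group was Pkd2 KO at P7 for miR-106b-5p, miR-93-5p, miR-25-3p and miR-20b-5p.

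**Figure D1:**
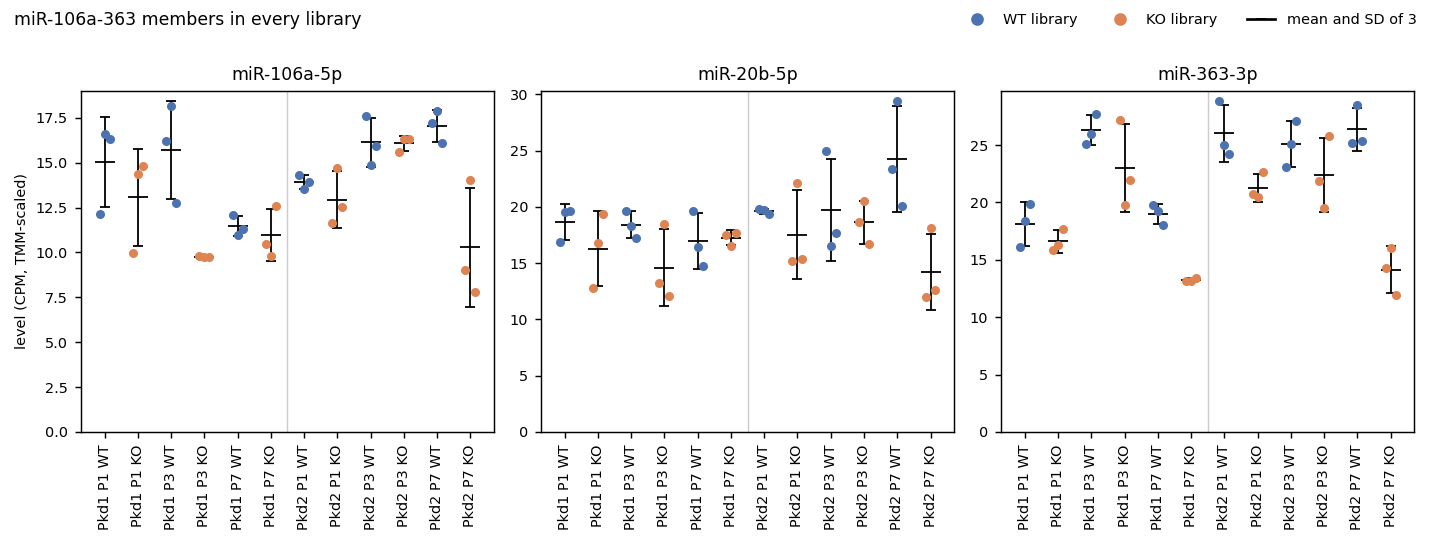
Level (CPM, TMM-scaled, linear axis from 0) of miR-106a-5p, miR-20b-5p and miR-363-3p in each of the 36 libraries by model, age and genotype. Points are libraries, black bars the mean and SD of 3. In all 3 panels the KO libraries of Pkd2 at P7 lie below the WT libraries of Pkd2 at P7, and for miR-363-3p the KO libraries of Pkd1 at P7 (13.1 to 13.4 CPM) lie below their WT libraries (18.1 to 19.8 CPM).

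KO was compared with WT at each age to ask how loss of Pkd1 or Pkd2 in the collecting duct changed the kidney's miRNAs. In the Pkd2 model at P7 all 3 members of miR-106a-363 were lower in KO, and none of the 5 members of miR-106b-25 passed the test. miR-363-3p stood at 25.2, 28.5 and 25.4 CPM in the WT libraries and at 14.3, 16.1 and 12.0 CPM in the KO libraries. The groups did not overlap, and every KO library was well under the lowest WT library. miR-363-3p fell by 0.84 on the log2 scale (SE 0.17, adjusted p = 0.0116, edgeR).

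miR-20b-5p, which carries the seed of miR-17-5p, stood at 23.4, 29.4 and 20.1 CPM in Pkd2 WT at P7 and at 12.0, 18.1 and 12.6 CPM in KO. KO replicate 2 was closest to the WT libraries, and the groups did not overlap. The level fell by 0.70 on the log2 scale (SE 0.20, adjusted p = 0.0314, edgeR). miR-106a-5p, with the same seed, stood at 17.2, 17.9 and 16.1 CPM in WT and at 9.05, 14.0 and 7.77 CPM in KO. Again KO replicate 2 was the nearest to WT and the groups were apart. The level fell by 0.67 on the log2 scale (SE 0.19, adjusted p = 0.0265, edgeR). Over all 746 miRNAs tested in this model, 94 were called at P7 in either direction, 12.6% of those tested, and in 12.1% all KO libraries lay under all WT libraries.

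miR-363-3p lost its call only when KO replicate 3 was left out (adjusted p = 0.0621, edgeR). miR-106a-5p and miR-20b-5p kept theirs only when KO replicate 2 was left out, and lost it without WT replicate 1, 2 or 3 or KO replicate 1 or 3. Among these KO libraries, replicate 2 had 74.1% of reads from miR-10a and miR-10b, against 41.1% and 57.4% in replicates 1 and 3. The bearing of that share on the calls was not tested. The log2 fold changes without 1 library stayed between -0.98 and -0.75 for miR-363-3p, between -0.95 and -0.60 for miR-20b-5p and between -0.99 and -0.52 for miR-106a-5p. With DESeq2 the same 3 members passed, miR-363-3p with an adjusted p of 6.76e-06, and miR-93-5p passed as well (adjusted p = 0.00651). The share of all miRNAs called above is that of edgeR, and that of DESeq2 is not given here. With scaling by library totals alone none of the 8 members passed.

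In the same comparison the miR-106b-25 members showed smaller differences in the same direction. miR-93-5p stood at 1726, 1760 and 1739 CPM in WT and at 1231, 1555 and 1183 CPM in KO, so the groups did not overlap. The log2 fold change was -0.33 (SE 0.13, adjusted p = 0.103, edgeR), which did not pass. miR-25-3p had a log2 fold change of -0.51, from 2251, 2899 and 3102 CPM in WT to 2530, 1497 and 1495 CPM in KO, with KO replicate 1 among the WT libraries. The other 3 lay between -0.32 and -0.04. Over all 8 members the median log2 fold change was -0.42 and 8 of 8 were negative, beside a median of 0.02 and 48.8% negative over all miRNAs tested.

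Some marker miRNAs of kidney tubule and of epithelium were called between the same libraries. Of 4 kidney tubule miRNAs, miR-192-5p, miR-194-5p and miR-204-5p were called lower in Pkd2 KO at P7, and the list summed to between 40900 and 80000 CPM in KO against 76900 to 84900 CPM in WT. Of 5 epithelial miRNAs that the collecting duct also expresses, miR-200c-3p and miR-141-3p were called higher, while the list summed to between 5940 and 6330 CPM in KO against 6040 to 7460 CPM in WT. Erythroid miRNAs summed to between 3450 and 5540 CPM in KO against 2210 to 2680 CPM in WT, skeletal muscle miRNAs to between 26.2 and 105 CPM against 18.2 to 19.1 CPM, and endothelial miRNAs to between 10500 and 15600 CPM against 15600 to 23700 CPM. None of the 3 erythroid, 3 skeletal muscle or 2 endothelial miRNAs was called, nor was any of the 4 leukocyte, 4 smooth muscle and mesenchyme or 1 liver markers. Leukocyte miRNAs summed to between 369 and 516 CPM in KO against 315 to 440 CPM in WT. Smooth muscle and mesenchyme miRNAs ran from 43000 to 84100 CPM against 45000 to 72100 CPM, and the liver miRNA from 2.49 to 14.1 CPM against 0.851 to 2.96 CPM. These ranges overlapped. How often summed lists were apart was not counted. The share of reads taken by miR-10a and miR-10b was 42.8% to 66.4% in these WT libraries and 41.1% to 74.1% in the KO libraries. The part of these differences in the lower levels of miR-106a-363 was not tested.

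Of 10 further mature miRNAs that the clusters' hairpins encode, 7 had enough reads to be tested in Pkd2 KO at P7, where 12.6% of all miRNAs were called. Of the 7, 5 were negative and 2 positive, and 1 was called, lower. It was miR-18b-5p, encoded between Mir106a and Mir20b, at 6.87, 5.65 and 5.25 CPM in WT and at 4.53, 3.02 and 2.65 CPM in KO. The groups did not overlap, as in this direction for 12.1% of all miRNAs tested. miR-18b-5p fell by 0.73 on the log2 scale (SE 0.22, adjusted p = 0.0348, edgeR). The partner strands miR-18b-3p, miR-20b-3p and miR-363-5p, each under 1 CPM on average, had log2 fold changes of -0.67, -0.58 and -0.62 and did not pass. miR-25-5p, the minor strand of miR-25, went the other way at 0.59 and did not pass (adjusted p = 0.111, edgeR). miR-19b-3p and miR-92a-3p come from both miR-106a-363 and miR-17-92, so their reads cannot be given to either cluster.

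None of the 12 mature miRNAs of miR-17-92 was called in Pkd2 KO at P7 by edgeR, and none of them had an unadjusted p under 0.05. Of the 746 miRNAs tested, 94 were called and 216 had such a p. Their log2 fold changes had a median of -0.02. miR-17-5p had a log2 fold change of -0.17 (SE 0.18) and miR-20a-5p one of -0.13 (SE 0.27). The reads of miR-106a-5p as a percent of those of miR-17-5p were 2.90, 3.32 and 3.36 in WT and 2.41, 2.48 and 1.80 in KO, so the WT and KO libraries did not overlap in this measure. How often such percentages were apart for other pairs of miRNAs was not counted, and this difference was not tested. The reads of miR-20b-5p as a percent of those of miR-20a-5p were 4.72, 7.15 and 5.80 in WT and 4.93, 3.40 and 3.96 in KO, with KO replicate 1 above the lowest WT library.

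**Figure D2:**
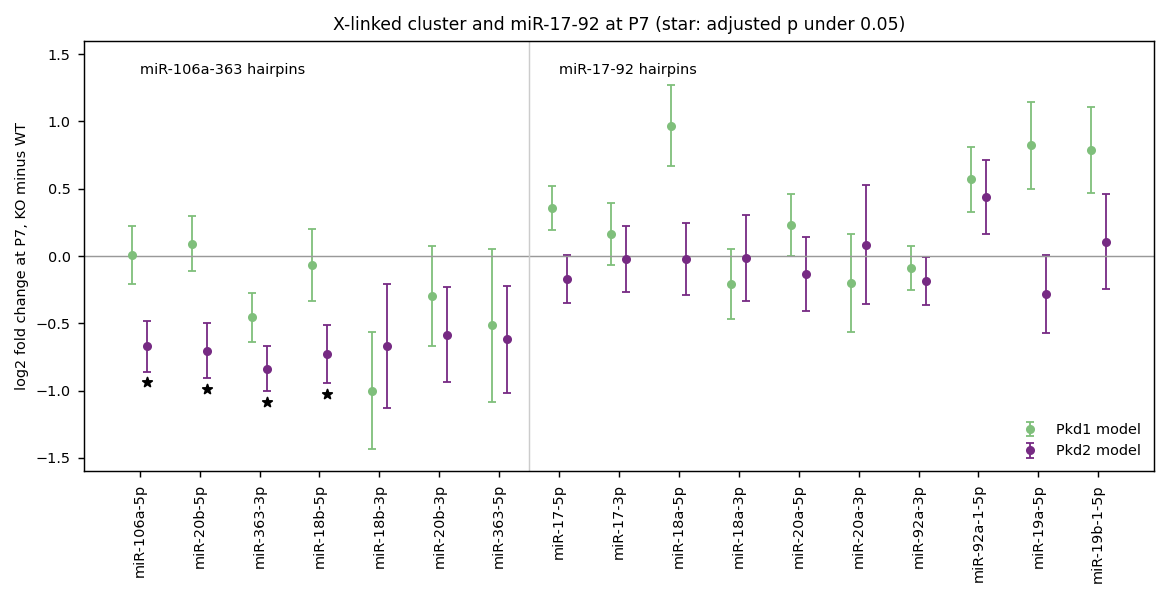
Log2 fold change of KO over WT at P7 with its SE, in each model (green Pkd1, purple Pkd2), for the tested strands of miR-106a-363 hairpins on the left and of miR-17-92 hairpins on the right. miR-19a-3p and miR-19b-3p, whose SE exceeded 1, are not drawn. Stars mark an adjusted p under 0.05, which only miR-106a-5p, miR-20b-5p, miR-363-3p and miR-18b-5p reached among those drawn, all in Pkd2 and all below 0.

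At P7 in the Pkd1 model none of the 8 members was called by edgeR or by DESeq2, beside 3 of 706 miRNAs tested, 0.425%, by edgeR. An unadjusted p under 0.05 was found for 72 of the 706 miRNAs and for 1 member. That member was miR-363-3p, at 19.8, 19.2 and 18.1 CPM in WT and at 13.1, 13.2 and 13.4 CPM in KO. The KO libraries were all lower and close together, a pattern that 10.2% of all miRNAs tested shared in having every KO library under every WT library. The log2 fold change was -0.46 (SE 0.18, adjusted p = 0.364, edgeR). miR-106a-5p and miR-20b-5p were at 0.01 and 0.09 on the same scale, with overlapping libraries. The 5 members of miR-106b-25 lay between 0.04 and 0.40, and the median of the 8 was 0.08 against 0.01 over all miRNAs tested.

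At P1 and P3 none of the 8 members was called by edgeR or DESeq2 in either model, and edgeR called 0% of all miRNAs tested in each of these 4 comparisons. In the Pkd1 model 1 member at P1 and 2 at P3 had an unadjusted p under 0.05, beside 59 and 64 of the 706 miRNAs tested. In the Pkd2 model none had at either age, beside 41 and 11 of the 746 miRNAs tested. miR-25-3p at P1 stood at 2913, 2575 and 2870 CPM in Pkd1 WT and at 3669, 4193 and 3692 CPM in Pkd1 KO. All KO libraries were higher, by 0.52 on the log2 scale (SE 0.23), which did not pass (adjusted p = 0.571, edgeR). The KO libraries of miR-106b-3p were also all higher, with a log2 fold change of 0.38 (adjusted p = 0.587, edgeR). All KO libraries lay above all WT libraries in 7.65% of the miRNAs tested in this comparison.

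miR-106a-5p at P3 stood at 16.2, 18.2 and 12.8 CPM in Pkd1 WT and at 9.81, 9.72 and 9.74 CPM in Pkd1 KO. The KO libraries were nearly equal and all under WT, the log2 fold change being -0.66 with an SE of 0.21, and the test was not passed (adjusted p = 0.382, edgeR). miR-93-3p and miR-93-5p from one hairpin were both lower in every KO library at P3, with log2 fold changes of -0.54 (adjusted p = 0.491, edgeR) and -0.18 (adjusted p = 0.740). Without WT replicate 2 the value for miR-93-3p was -0.28. All KO libraries lay under all WT libraries in 6.09% of the miRNAs tested at this age in Pkd1. In the Pkd2 model at P1 the libraries were apart for miR-106b-5p, at 0.20, and for miR-93-5p and miR-363-3p, at -0.16 and -0.24, all with an adjusted p of 0.97 or more (edgeR), beside 4.29% of all miRNAs tested with every KO library above WT and 9.12% with every KO library under WT. At P3 in that model every member lay between -0.18 and 0.01.

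**Figure D3:**
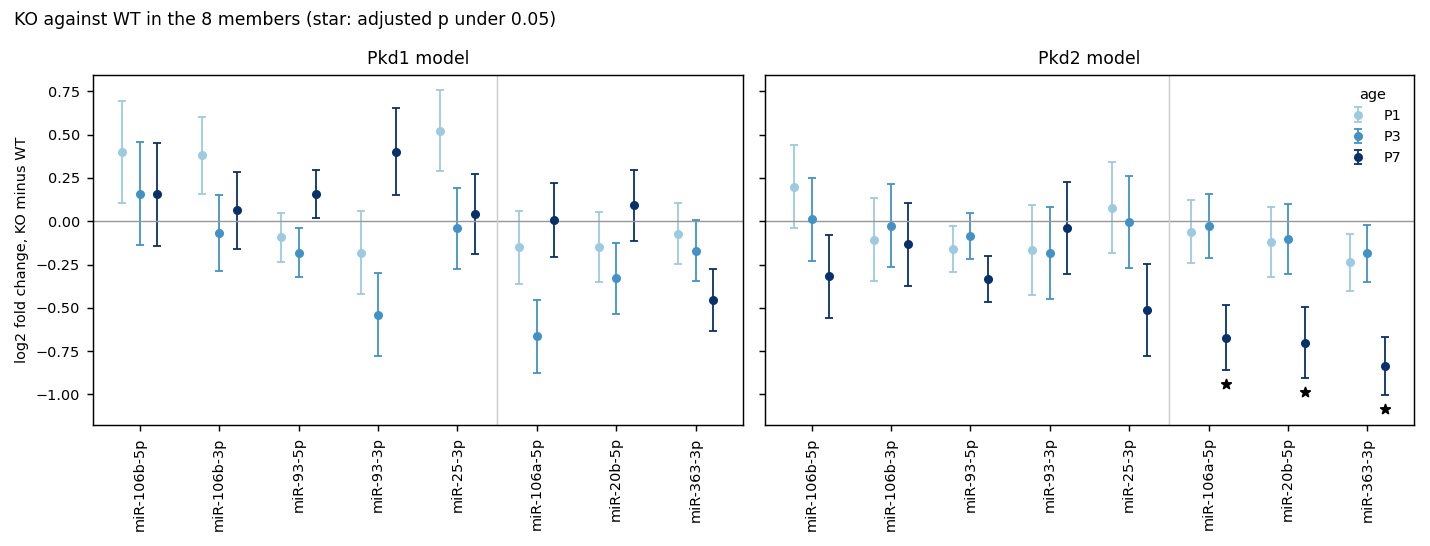
Log2 fold change of KO over WT with its SE for the 8 members at P1, P3 and P7 in the Pkd1 model (left) and the Pkd2 model (right), the grey line separating miR-106b-25 from miR-106a-363. Stars mark an adjusted p under 0.05. The stars stand at miR-106a-5p, miR-20b-5p and miR-363-3p in Pkd2 at P7, and the Pkd2 values at P1 and P3 lie between -0.24 and 0.20.

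The change of the KO effect with age and its difference between the models were tested directly. For the P7 KO effect less the P1 KO effect, edgeR called none of the members in Pkd1, where 0.142% of all miRNAs were called, and none in Pkd2, where 0.536% were. In Pkd2, 2 members had an unadjusted p under 0.05, miR-106a-5p with a difference of -0.61 (SE 0.26) and miR-363-3p with one of -0.60 (SE 0.23), adjusted p = 0.256 and 0.221. Of the 746 miRNAs tested there, 126 had such an unadjusted p. miR-106a-5p was called (adjusted p = 0.0261) when Pkd2 KO replicate 2 at P7 was left out. For the KO effect in Pkd2 minus that in Pkd1, none of the members was called at P1, P3 or P7, beside 0%, 0% and 0.387% of the 775 miRNAs tested, and DESeq2 called none either. At P7 the differences were -0.80 for miR-20b-5p (SE 0.29), -0.67 for miR-106a-5p (SE 0.27), -0.50 for miR-93-5p (SE 0.18) and -0.38 for miR-363-3p (SE 0.20), with adjusted p from 0.328 to 0.460. At P3 the difference for miR-106a-5p was 0.68 in the other direction (SE 0.26, adjusted p = 0.849). The KO effects of the models were therefore not shown to differ for any member.

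WT at P7 was compared with WT at P1 to follow the days after birth. None of the 8 members was called by edgeR, beside 21.5% of the miRNAs tested in Pkd1 and 28.3% of those in Pkd2. In Pkd1, where 256 of the 706 miRNAs tested had an unadjusted p under 0.05, 1 member had. It was miR-93-3p, at 6.70, 8.97 and 8.78 CPM at P1 and at 5.77, 5.27 and 3.65 CPM at P7. The libraries were apart, and the log2 fold change was -0.65 with an SE of 0.25 (adjusted p = 0.0713, edgeR), while DESeq2 called it (adjusted p = 0.0359). The share of all miRNAs that DESeq2 called there is not given. In 18.7% of the miRNAs tested all P7 libraries lay under all P1 libraries. In Pkd2, where 297 of the 746 miRNAs tested had an unadjusted p under 0.05, no member had, and DESeq2 called none. There miR-93-3p stood at 9.37, 8.97 and 9.34 CPM at P1 and at 7.69, 6.56 and 6.73 CPM at P7. This was -0.47 on the log2 scale with an SE of 0.26 (adjusted p = 0.195, edgeR). The libraries were again apart, as they were in this direction for 25.7% of the miRNAs tested.

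Some relatives and partner strands changed over the same days. Of the 12 miR-17-92 miRNAs, 4 were called lower in Pkd1 and 4 in Pkd2, beside 21.5% and 28.3% of all miRNAs called in either direction. In each case they were miR-17-5p, miR-18a-5p, miR-92a-1-5p and miR-92a-3p. miR-17-5p fell by 0.69 in Pkd1 (SE 0.16, adjusted p = 0.00922, edgeR) and by 0.60 in Pkd2 (SE 0.18, adjusted p = 0.0183) on the log2 scale. miR-92a-3p fell by 0.72 in Pkd1 and by 0.81 in Pkd2. miR-106a-5p, 1 base away from miR-17-5p, had a log2 fold change of -0.30 (SE 0.21) in Pkd1 and of 0.21 (SE 0.18) in Pkd2, neither past the test. Its P7 libraries all lay under its P1 libraries in Pkd1, as for 18.7% of the miRNAs tested. In Pkd2 they all lay above, as did those of miR-20b-5p and of 24.3% of the miRNAs tested. miR-25-5p fell by 1.48 in Pkd1 (SE 0.25, adjusted p = 0.00157) and by 1.02 in Pkd2 (SE 0.24, adjusted p = 0.00485). The other strand of its hairpin, miR-25-3p, had log2 fold changes of -0.17 (SE 0.23) and -0.09 (SE 0.27). The difference between miR-17-5p and miR-106a-5p was not tested.

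**Figure D4:**
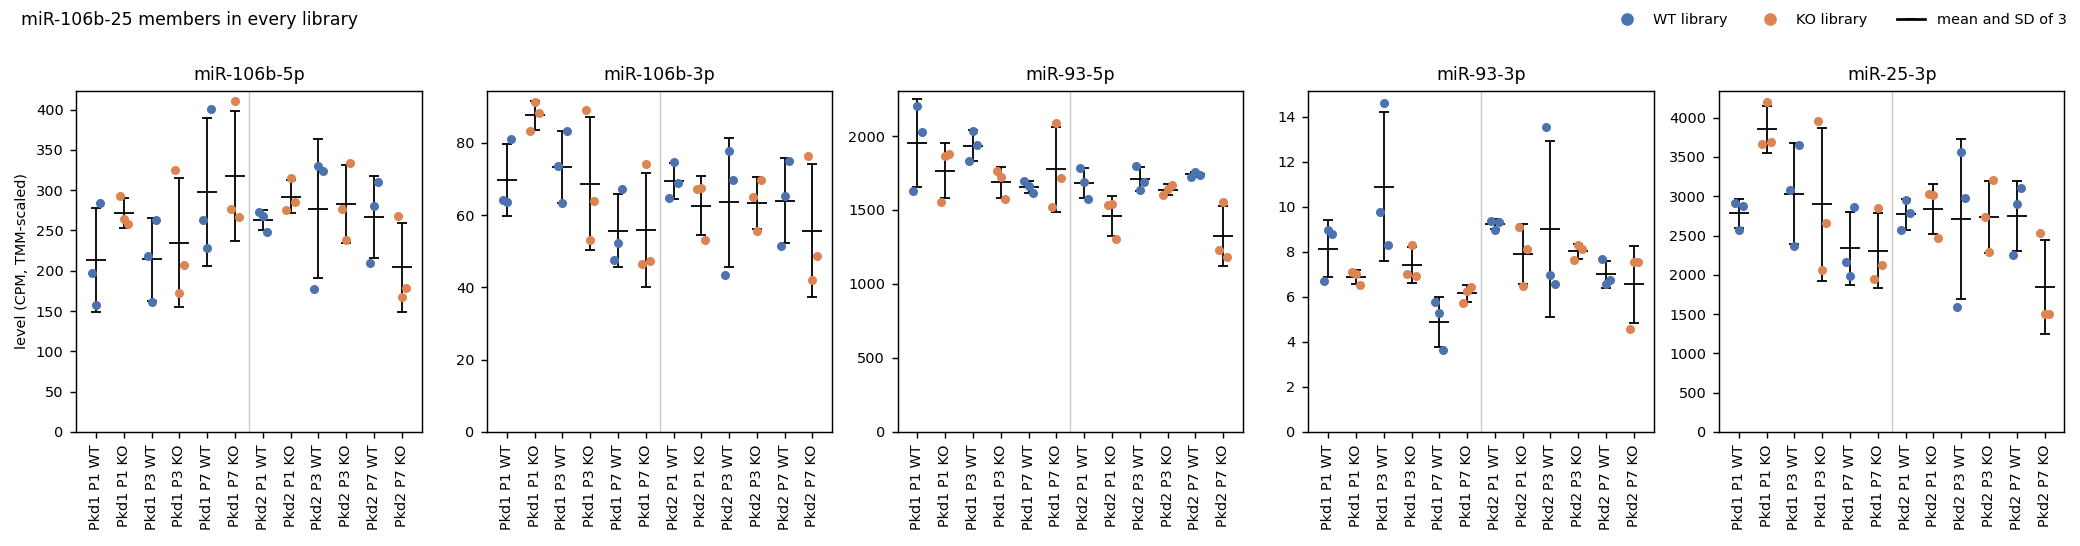
Level (CPM, TMM-scaled, linear axes from 0, each panel with its own scale) of the 5 miR-106b-25 members in each of the 36 libraries by model, age and genotype. Points are libraries, black bars the mean and SD of 3. Most groups overlap their neighbours, and miR-93-3p in Pkd1 WT falls to 3.65 to 5.77 CPM at P7. miR-25-3p has its highest group mean in Pkd1 KO at P1 (3669 to 4193 CPM), where a Pkd1 KO library at P3 (3961 CPM) lies in the same range.

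The WT animals of the lines were also compared with each other, over the 3 ages. miR-363-3p was higher in Pkd2 f/f than in Pkd1 f/f, by 0.31 on the log2 scale (SE 0.08, adjusted p = 0.00643, edgeR), and it was the 1 member called, beside 25.2% of all miRNAs tested. Its mean level was 26.0 CPM ± 2.50 (SD, n = 3) in Pkd2 against 18.1 ± 1.92 in Pkd1 at P1, 25.1 ± 2.01 against 26.3 ± 1.33 at P3, and 26.4 ± 1.85 against 19.0 ± 0.873 at P7. The libraries were apart at P1 and P7 and overlapped at P3. The share of all miRNAs with libraries apart between the lines was not counted. Without Pkd1 WT replicate 1 at P3 the call was lost (adjusted p = 0.0733, edgeR). The other 7 members lay between -0.11 and 0.23, and the line and any difference in how its libraries were made cannot be told apart.

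Ratios between members of one library do not depend on scaling and were tested with exact two-sided permutation tests within genotype or age, 24 tests in all. None passed the Benjamini-Hochberg adjustment, the lowest adjusted p being 0.12 (exact permutation tests). The reads of miR-106b-5p over those of miR-106b-3p in the Pkd1 model were 3.07, 2.47 and 3.50 in WT and 3.51, 2.90 and 2.92 in KO at P1. At P7 they were 5.50, 4.36 and 5.98 in WT and 5.94, 5.54 and 5.64 in KO. Every one of the 6 libraries at P7 lay above every library at P1 and at P3. The ratio rose by 0.85 on the log2 scale from P1 to P7, with an unadjusted exact permutation p of 0.005, the smallest this design can give. Over 24 tests that p is adjusted to 0.12 when it is reached by 1 test alone. This ratio could therefore not have passed by itself, and its failure to pass is not informative.

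A change of this kind was common. Of 263 hairpins with both strands measured in the Pkd1 model, 38.8% had an unadjusted exact p at or under 0.05 for the same contrast, with a median difference of 0.22, and the hairpin of miR-106b ranked 44th from the top. In the Pkd2 model, where 31.8% of 277 hairpins had such a p, the same ratio differed by -0.10 (exact permutation p = 0.38). It ran from 3.58 to 5.38 at P1 and from 3.51 to 4.30 at P7, so the libraries overlapped. The difference between the models was not tested. For the hairpin of miR-25, which was not among the 24 tests, the 5p to 3p ratio differed by -0.83 in Pkd1 (unadjusted exact permutation p = 0.005) and by -0.51 in Pkd2 (p = 0.155, exact permutation test).

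The X-linked members were counted in numbers of the same order of magnitude in every group. miR-20b-5p over miR-106a-5p averaged between 1.16 and 1.59 in the 12 groups, and miR-363-3p over miR-20b-5p between 0.768 and 1.65. In Pkd1 the first ratio differed by 0.29 on the log2 scale from P1 to P7 (unadjusted exact permutation p = 0.01, adjusted p = 0.12). In Pkd2 KO at P7, where the levels of all 3 were lower, miR-20b-5p over miR-106a-5p was 1.33, 1.29 and 1.62, against 1.36, 1.64 and 1.25 in WT. These ratios overlapped between the genotypes. In Pkd1 at P7, miR-363-3p over miR-20b-5p was 1.01, 1.17 and 1.22 in WT. In KO it was 0.749, 0.798 and 0.758, so the genotypes did not overlap. KO minus WT of this log2 ratio in Pkd1 was 0.09 at P1, 0.15 at P3 and -0.56 at P7. Over the 3 ages it was -0.10 (unadjusted exact permutation p = 0.452), and P7 alone was not tested. How often ratios of this kind were apart between genotypes was not counted, so the separation at P7 has no background beside it.

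**Figure D5:**
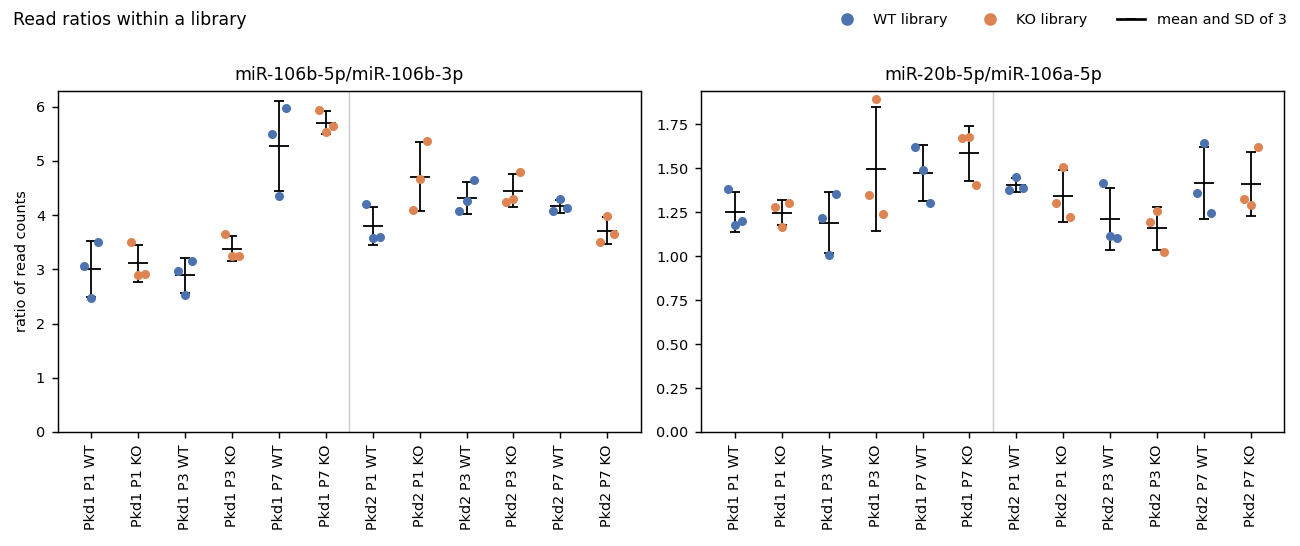
Ratio of read counts within each library for miR-106b-5p over miR-106b-3p (left) and miR-20b-5p over miR-106a-5p (right), on linear axes from 0, by model, age and genotype, with the mean and SD of 3. On the left the 6 Pkd1 libraries at P7 (4.36 to 5.98) stand above the other Pkd1 libraries (2.47 to 3.65), whereas the Pkd2 libraries lie between 3.51 and 5.38 at P1, P3 and P7.

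Across the 36 libraries the members did not all vary with their own cluster. Correlations of log2 CPM, centred within each model, are a description, since the libraries share groups and scaling. miR-106b-3p and miR-25-3p varied most alike (Pearson's r = 0.93), and miR-106b-5p and miR-93-3p went in opposite directions (r = -0.55), although all 4 come from one primary transcript. miR-93-5p was closer to miR-106a-5p (r = 0.78) and miR-20b-5p (r = 0.69) of the X chromosome than to miR-25-3p (r = 0.26) or miR-106b-5p of its own cluster. Within miR-106a-363, r was 0.76 for miR-106a-5p and miR-20b-5p, 0.54 for miR-106a-5p and miR-363-3p and 0.36 for miR-20b-5p and miR-363-3p. Of 307 other miRNAs with a mean of at least 10 CPM, the profile of miR-106b-25 was most like those of miR-615-3p (r = 0.83), miR-214-3p (r = 0.83) and miR-296-3p (r = 0.80). The profile of miR-106a-363 was most like those of miR-196a-2-3p (r = 0.72), miR-301b-3p (r = 0.69) and miR-708-3p (r = 0.65).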

How the data were processed

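The authors trimmed the 3′ adaptor, kept reads longer than 17 bases, aligned them with miRDeep2 (version not given in the sources used here) to mm10 or to miRBase release 21, and deposited raw read counts per mature miRNA and hairpin, without normalization. The submitters' processing notes also name CASAVA 1.8.2 and HTSeq, without a role. Each member has 1 row in the table. Where a miRNA was listed under several hairpins, only the row with most reads was kept.

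Counts were tested here with edgeR 4.0.16 (quasi-likelihood F-test, R 4.3.3) over the 18 libraries of a model, or over all 36 for comparisons between models, with TMM scaling, after dropping miRNAs that did not reach 10 counts in 3 libraries or more. Adjusted p-values are Benjamini-Hochberg over all miRNAs tested, and a miRNA was called under 0.05. SE is the log2 fold change divided by the square root of F. Ratios used a pseudocount of 0.5 and exact permutations within strata. The script was tested on simulated data. DESeq2 1.42.0, other scalings, filters, fits and left-out libraries were alternatives. Hairpins were placed with GENCODE M21, of the same build as mm10.

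The members and lists were chosen with earlier results of these data known. Every member was tested in every comparison, and a member's full statistics are given mainly where its unadjusted p was under 0.05 or its groups did not overlap. The smallest count of a member in any library was 34 reads, and depth covers counting error only. Pkd1 and Pkd2 messenger RNA was not analysed here, and the labels of genotype could not be checked against it.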

Additional observations from a re-analysis of the deposited data

How the results depend on the processing

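In Pkd2 KO against WT at P7, 3 members were called. The number was 0 with scaling by library totals alone, 1 without the filter on low counts, 1 with the compared libraries fitted alone, 5 with the share of reads from miR-10a and miR-10b as a covariate (an alternative chosen after seeing the data), and between 0 and 4 with 1 library left out. Between the WT lines, 1 member was called, against 5 with library totals, 6 with the covariate, and between 0 and 1 with 1 library left out. From P1 to P7 in WT no member was called, against 1 in Pkd1 and 1 in Pkd2 with library totals, 1 in Pkd1 with DESeq2, and 2 in Pkd1 and 1 in Pkd2 with the covariate. For the KO effect in Pkd2 the change with age gave between 0 and 1 with 1 library left out, and the difference between the models at P7 gave 1 with the covariate. The share of all miRNAs called under each alternative is not given beside these counts. They therefore do not show a change particular to the members. The causes were not tested. Library totals moved the median log2 fold change of all miRNAs by -0.65 in Pkd1 and by -0.73 in Pkd2 from P1 to P7. Between the lines they moved it by 0.64, so a member's changes on that scale are relative to these shifts. In Pkd2 KO against WT at P7 the median moved by -0.04, and why no member was called there was not tested.

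None of the 16 member fold changes with an unadjusted p under 0.05 (edgeR) reversed under these alternatives, and the other fold changes were not followed through them. Ratios that reversed were all close to 0. With medians, miR-20b-5p over miR-106a-5p by age in Pkd2 was -0.0025 and miR-25-3p over miR-93-5p by genotype in Pkd2 was -0.089. With 1 library left out these ran from -0.0203 to 0.0791 and from -0.0698 to 0.1473, and miR-93-5p over miR-93-3p by genotype in Pkd1 ran from -0.0169 to 0.1089. WT and KO libraries with the same number did not deviate together throughout (correlations from -0.83 to 0.61), so the numbers were not taken to pair them. With 3 libraries in a group this cannot exclude pairing, and the paper names age-matched littermates as controls. With the replicate number as a block, 2 members were called in Pkd2 at P7, miR-106a-5p having an adjusted p of 0.0625 (edgeR).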
